A study of Mus musculus with 51 samples.

Results

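The T-box genes other than Tbx4 and Tbx5 were followed in mouse limb buds and whole embryos from embryonic day 9.5 (E9.5) to E13.5. The genes described are Tbx1, Tbx2, Tbx3, Tbx6, Tbx15, Tbx18, Tbx20 and Tbx22, taken by their symbols in the annotation of the array, and they are 8 of the 18194 genes measured. They were read by 16 of the 45101 probe sets of the array, a probe set being a group of short oligonucleotides whose signals are combined into 1 value. Tbx3 was read by 5 probe sets, Tbx20 by 3, Tbx15 and Tbx18 by 2 each and the other 4 genes by 1 each. None of the 16 was assigned to a further gene. Levels are log2 of the deposited RMA intensities, with the probe sets of a gene averaged unless 1 of them is named, so that a difference of 1 is a 2-fold change. Levels of different genes or probe sets are not comparable with each other.

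All animals were wildtype FVB embryos with no mutant allele and no treatment, so that groups differed in tissue and in age. Forelimb was measured on 3 arrays at E9.5, 4 at E11.5 and 5 at each of E10.5, E12.5 and E13.5. There were 4 hindlimb arrays at E10.5 and 5 of each later stage, and whole embryo had 2 at each of the 5 stages, for 51 arrays in 14 groups. Each array held the RNA of a single embryo, and the limb replicates of a stage came from the same litter, so the spread between them is that between littermates. Forelimb and hindlimb arrays of a stage may come from the same embryos, and they were analysed as independent. Whole embryos were left intact and contained their own limbs. Limb buds are mixtures of tissues, and in such bulk RNA fewer cells of a type and less RNA per cell cannot be told apart.

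T-box genes encode transcription factors that bind DNA through a shared domain, the T-box, and many act in the laying down of mesoderm and its organs. Tbx2 and Tbx3 belong to the same subfamily as the limb genes Tbx4 and Tbx5, lie next to them in the genome and act mainly as repressors. Tbx15, Tbx18 and Tbx22 form a group of close relatives that act in skeletal, somitic and palatal mesenchyme, whereas Tbx1, Tbx6 and Tbx20 are best known from the pharyngeal arches, the presomitic mesoderm and the heart.

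The labels of tissue were checked first. Tbx5, the forelimb gene, was at 7.62 to 9.94 on the 22 forelimb arrays and at 5.11 to 6.27 on the 19 hindlimb arrays, and Tbx4 and Pitx1, the hindlimb genes, were at 4.35 to 7.10 and 4.47 to 5.67 on forelimb against 8.91 to 10.25 and 9.81 to 10.87 on hindlimb. On 2 arrays, titled Hindlimb E11.5 replicate 5 and Forelimb E12.5 replicate 5, other labels name another tissue or stage. They were grouped by title, which these 3 genes fit. The arrays fell into 2 sets: on the 3 E9.5 forelimb arrays and the 10 of whole embryo the Dap spike-in was at 8.56 to 11.73 and the 3′ probe set of Gapdh exceeded the 5′ one by 1.48 to 2.85, while on the 38 later limb arrays these values were 2.96 to 3.38 and -0.10 to 0.16. Set and tissue therefore cannot be told apart in limb against whole embryo from E10.5 on, nor set and stage between E9.5 and E10.5 forelimb. Forelimb against hindlimb of the same stage and stages from E10.5 within a limb lie within a set. Within the smaller set E9.5 forelimb and whole embryo did not overlap, with Dap at 11.36 to 11.73 on the former and 8.56 to 9.98 on the latter and the Gapdh difference at 1.48 to 1.73 and 1.85 to 2.85, so these properties of the arrays and tissue cannot be told apart at E9.5 either. The E9.5 whole embryos differed from each other: 8.38% of genes were more than 1 log2 unit apart on the pair, against 0.0769% to 2.24% at the other stages.

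Of the 8 genes, Tbx18 was the one called different between forelimb and hindlimb of the same stage and Tbx20 the one down-regulated in limb against whole embryo at every stage. The 250 bases before the start of each are printed here with every CG dinucleotide in capitals, to show the promoters of a limb-high and a limb-low member (RefSeq, GRCm38.p6; Tbx18 at chr9:87731261-87731510 and Tbx20 at chr9:24774304-24774553, both on the minus strand and read 5′ to 3′ toward the gene).
Tbx18: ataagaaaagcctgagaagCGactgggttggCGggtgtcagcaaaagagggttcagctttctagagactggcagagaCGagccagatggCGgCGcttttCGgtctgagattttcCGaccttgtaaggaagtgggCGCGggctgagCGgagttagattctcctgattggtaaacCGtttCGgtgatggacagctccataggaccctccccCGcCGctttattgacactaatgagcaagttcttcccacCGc
Tbx20: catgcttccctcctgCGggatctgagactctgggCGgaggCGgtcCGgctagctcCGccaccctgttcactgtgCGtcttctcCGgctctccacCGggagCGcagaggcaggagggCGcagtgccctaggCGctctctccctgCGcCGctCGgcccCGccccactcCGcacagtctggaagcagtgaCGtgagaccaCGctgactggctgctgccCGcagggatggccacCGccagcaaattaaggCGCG
The Tbx18 window was 54.0% G and C with 15 CG dinucleotides and the Tbx20 window 68.8% with 22, against medians of 52.4% and 6 over the 32851 promoter windows of the table. The letters AGGTGTGA, the core of a T-box binding site, searched on both strands, occurred in 368 of these windows, or 1.12%, and in none of the 8 windows of the 5 members listed (Tbx1, Tbx6, Tbx18, Tbx20 and Tbx22). TATAAA occurred in 12.4% of all windows and in 1 of the 8, that of Tbx6.

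Limb was compared with whole embryo of the same stage to find the genes enriched in the bud. Tbx15 and Tbx18 were up-regulated in the limb in all 9 comparisons, by 1.59 to 4.21 and by 1.16 to 3.06 on the log2 scale, and Tbx20 was down-regulated in all 9, by 1.25 to 1.82. Tbx3 was up-regulated in 5 of the 9 and Tbx2 in 1. Tbx1 was down-regulated in 3, at E9.5 and E10.5, and Tbx6 in 1, at E9.5. Tbx22 was not called in any of the 9. A gene was called where the fold change was at least 2 and the p value of the limma fit, adjusted after Benjamini-Hochberg over all 18194 genes, was under 0.001.

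In forelimb, 6 of the 8 genes were called at E9.5, where 3.69% of all genes were called, 5 at E10.5 (13.93% of all genes), and 4 each at E11.5 (15.32%), E12.5 (13.96%) and E13.5 (13.66%). In hindlimb, 4 were called at E10.5 (13.18% of all genes) and 4 at E13.5 (14.45%), with 3 each at E11.5 (15.71%) and E12.5 (12.54%). That made 37 of 72 tests, 24 higher and 13 lower in limb. Forelimb and hindlimb of a stage were set against the same whole embryo arrays, and a gene recurs over stages. These tests are therefore not independent of each other. At E9.5, Tbx2, Tbx15 and Tbx18 were higher in forelimb and Tbx1, Tbx6 and Tbx20 lower. All 6 of these calls were lost with the E9.5 groups alone in the fit (adjusted p of 0.0325 to 0.301), with the 13 arrays of their set (0.00151 to 0.12) and with array weights (0.0108 to 0.16).

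**Figure D1:**
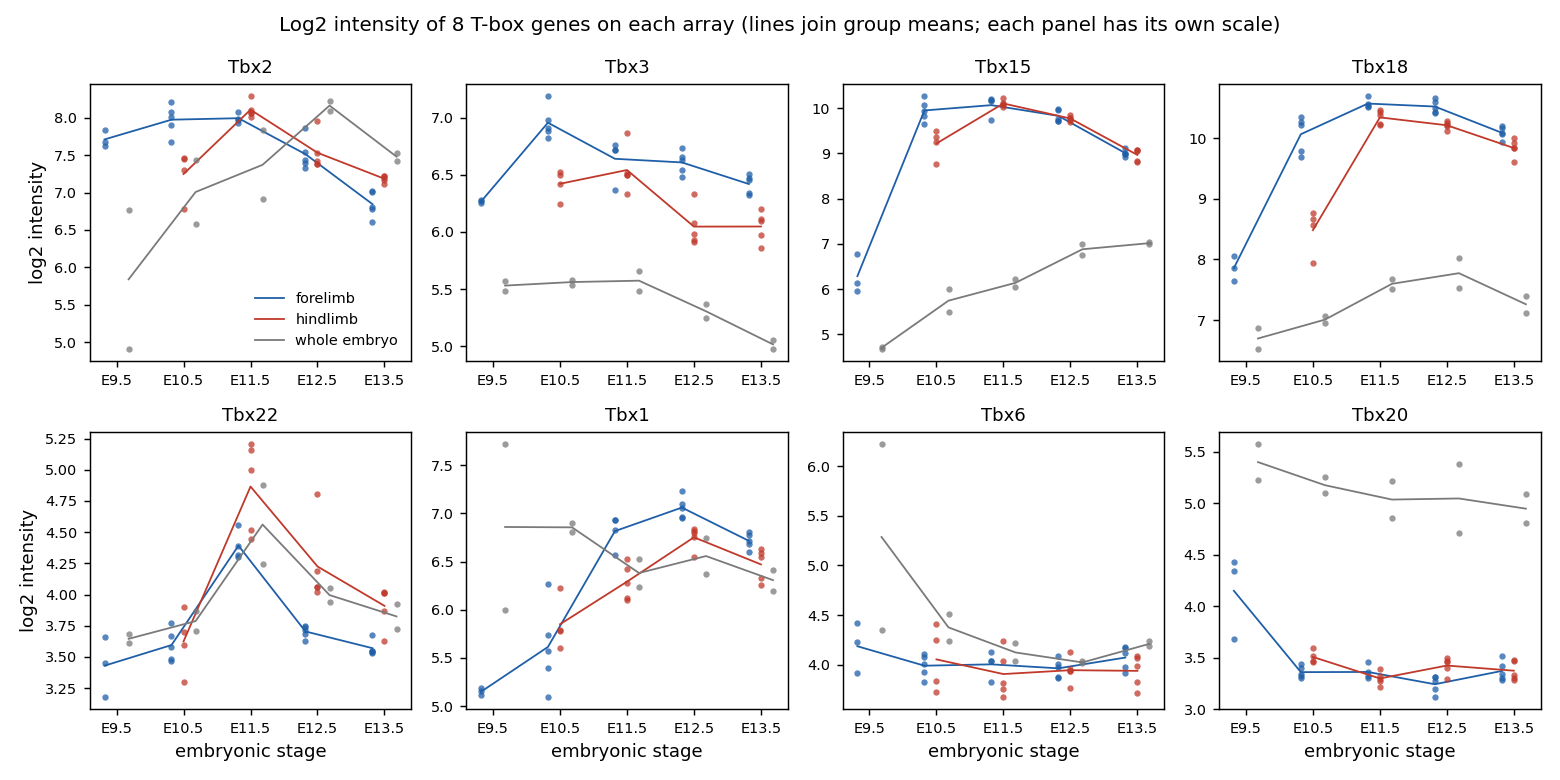
Log2 intensity (vertical axis, a separate scale in each panel) of the 8 genes on each of the 51 arrays against embryonic stage, with points for arrays and lines joining group means for forelimb, hindlimb and whole embryo. For Tbx15 every limb array from E10.5 on, at 8.76 or more, lies above every whole embryo array, at 7.04 or less, for Tbx20 every limb array lies below every whole embryo array, and for Tbx18 the E10.5 hindlimb arrays lie apart from the other limb arrays of that stage and later.

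Tbx2, a repressor found at the margins of the limb bud (chr11:85832615-85841948), was at 7.67, 7.63 and 7.83 in E9.5 forelimb and at 6.77 and 4.91 in E9.5 whole embryo. The forelimb arrays lay close together and above both whole embryos, which were far apart. The log2 fold change was 1.87 (SE 0.271, adjusted p = 6.61e-07), and it was 2.80 without whole embryo replicate 1 and 0.94 without replicate 2, the latter not called (adjusted p = 0.00687). At E10.5 the forelimb difference was 0.97 (SE 0.248) and missed the fold threshold, with the forelimb arrays at 8.20, 8.01, 7.68, 8.07 and 7.90 and whole embryo at 6.57 and 7.44. Without whole embryo replicate 2 it was 1.40 and without forelimb replicate 3 it was 1.04, and both passed. By E12.5 and E13.5 the difference was -0.65 and -0.63 in forelimb and -0.63 and -0.30 in hindlimb, none of them called.

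Tbx3, a repressor whose loss causes ulnar-mammary syndrome (chr5:119670534-119684724), was at 6.82, 6.98, 6.91, 7.19 and 6.89 in E10.5 forelimb and at 5.58 and 5.54 in whole embryo. The groups did not overlap, and the log2 fold change was 1.40 (SE 0.113, adjusted p = 2.65e-14). It stayed between 1.07 and 1.40 in forelimb to E13.5, and was 0.73 (SE 0.123) at E9.5, short of a 2-fold change. In hindlimb the differences were 0.86, 0.97, 0.74 and 1.03 from E10.5 to E13.5, of which the last was called (adjusted p = 1.25e-10). That call was lost at 0.99 when whole embryo replicate 1 or hindlimb replicate 1 was left out, and the E11.5 forelimb call at 0.98 without whole embryo replicate 2, while the E11.5 hindlimb difference became called at 1.06 without whole embryo replicate 1 and at 1.02 without hindlimb replicate 3.

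The 5 probe sets of Tbx3 gave different courses. Probe set 1448029_at was at 9.63, 9.49 and 9.74 in E9.5 forelimb against 7.62 and 7.26 in whole embryo, a called difference of 2.18, whereas 1437479_x_at, at 6.78, 6.58 and 6.63 against 5.79 and 5.67, differed by 0.93 and was not called. From E9.5 to E10.5 forelimb, 1437479_x_at rose by 2.19 and 1439567_at by 1.38, and for 1448029_at the step was -0.08. The array set changed in this step too, and its part in the split between probe sets was not tested. A single probe set, 1444594_at, lay at group means of 3.32 to 3.93 in every group. The average of the gene therefore mixes courses that its probe sets do not share.

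Tbx15, which shapes the skeleton and is mutated in the droopy ear mouse (chr3:99240348-99354260), showed the widest range of the 8 genes, with group means from 4.70 in E9.5 whole embryo to 10.10 in E11.5 hindlimb. It was at 9.94, 10.07, 9.84, 9.65 and 10.26 in E10.5 forelimb, at 9.26, 9.35, 8.76 and 9.5 in E10.5 hindlimb and at 5.50 and 5.99 in whole embryo. The limb arrays lay far above both whole embryos. The log2 fold change was 4.21 (SE 0.158, adjusted p = 3.86e-25), or 18.5-fold, in forelimb and 3.48 (SE 0.163, adjusted p = 1.04e-21) in hindlimb.

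The Tbx15 difference was smaller at later stages in both limbs, at 3.93, 2.95 and 1.99 from E11.5 to E13.5 in forelimb and at 3.97, 2.89 and 1.95 in hindlimb, all called; the narrowing itself was not tested. Whole embryo Tbx15 was at 4.68 and 4.72 at E9.5 and at 6.99 and 7.04 at E13.5, a change of 2.31 (SE 0.188, adjusted p = 4.5e-14). The E13.5 embryos lay above all those of E9.5 to E11.5. At E9.5 forelimb was at 5.96, 6.12 and 6.77, above both whole embryos by 1.59 (SE 0.172, adjusted p = 1.12e-09, but 0.00151 to 0.036 in the 3 fits that lost the E9.5 calls).

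The probe sets of Tbx15 agreed in direction and differed in size. At E9.5, 1418755_at was 2.78 higher in forelimb than in whole embryo and was called, whereas 1422195_s_at, at 4.17, 4.54 and 5.25 against 4.34 and 4.18, was 0.39 higher and was not. At E13.5 the forelimb differences were 1.05 and 2.93, and in whole embryo the probe sets rose from E9.5 to E13.5 by 3.54 and 1.09. At E10.5 those forelimb differences had been 3.45 and 4.97, so that both probe sets had the smaller difference at the last stage.

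Tbx18, known for its roles in somites, epicardium and ureter (chr9:87702800-87731260), was at 10.27, 10.22, 9.79, 9.68 and 10.35 in E10.5 forelimb against 6.95 and 7.06 in whole embryo. These groups lay far apart, with a log2 fold change of 3.06 (SE 0.156, adjusted p = 1.45e-20). The forelimb difference was then 2.97, 2.75 and 2.83. The hindlimb difference was 1.47 (SE 0.161, adjusted p = 1.55e-10) at E10.5 and 2.74, 2.44 and 2.57 afterwards. At E10.5 in hindlimb the probe sets disagreed, 1449871_at being 2.33 higher than whole embryo and 1429974_at 0.62 higher, which was not called. At E9.5 forelimb was at 7.64, 7.86 and 8.06 and whole embryo at 6.87 and 6.53, a difference of 1.16 (SE 0.170) that fell below 2-fold, to 0.99, without whole embryo replicate 2. This E9.5 difference was also short of 2-fold with the brightest probe set alone (0.79) and with 32 added to each intensity (0.885).

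Tbx22, the gene of X-linked cleft palate (chrX:107667964-107688980), had limb differences from whole embryo that ran from -0.29 to 0.30, with adjusted p of 0.135 or more. Whole embryo itself peaked at E11.5, at 4.87 and 4.25, against 3.61 to 4.05 on the arrays of its other stages.

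Tbx1, which patterns the pharyngeal arches (chr16:18580979-18590671), was at 5.15, 5.18 and 5.11 in E9.5 forelimb and at 7.72 and 6.0 in whole embryo. Forelimb lay below both embryos, by 1.71 on average (SE 0.249, adjusted p = 7.6e-07), and without whole embryo replicate 1 the difference of -0.85 was not called (adjusted p = 0.00263). At E10.5 it was -1.24 (SE 0.228) in forelimb and -1.0 (SE 0.237, adjusted p = 0.000363) in hindlimb. The hindlimb call was lost, at -1.05 to -0.92, without either whole embryo or without hindlimb replicate 1, 2 or 4, and the forelimb call, at -1.19, without whole embryo replicate 2. From E11.5 the differences were -0.09 to 0.50 and not called.

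Tbx6, a regulator of the presomitic mesoderm (chr7:126781483-126785548), was at 6.22 and 4.35 in E9.5 whole embryo, at 4.23, 4.42 and 3.91 in E9.5 forelimb and at 3.68 to 4.40 on the 38 later limb arrays. A single array, whole embryo replicate 1 at E9.5, stood out. The difference of -1.10 (SE 0.240, adjusted p = 0.000378) between groups that overlapped became -0.17 without that array (adjusted p = 0.561), and it was also lost without forelimb replicate 1 (-1.12, adjusted p = 0.00119) or 3 (-0.96, adjusted p = 0.00454). The same array was 1.71 higher than its partner for Tbx1 and 1.86 higher for Tbx2, and the summed intensity of 10 presomitic and somite markers was 3303 on it against 1509 on replicate 2; their part in these differences was not tested.

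Tbx20, a cardiac regulator (chr9:24720812-24774303), was read at a changing level by 1 of its 3 probe sets, 1453351_at, the other 2 lying between 3.03 and 4.42 on all arrays. That probe set was at 7.93 and 8.70 in E9.5 whole embryo and at 5.62, 5.65 and 3.55 in E9.5 forelimb. It was at 2.70 to 3.15 on the 38 later limb arrays and at 5.86 to 9.0 on the 8 later whole embryo arrays. Forelimb was below whole embryo by 3.38 at E9.5 and by 4.43 to 4.80 afterwards, and hindlimb by 4.44 to 4.67, all called. The averaged gene, diluted by the flat probe sets, was lower by 1.25 (SE 0.141, adjusted p = 3.04e-09) at E9.5 and by 1.57 to 1.82 later, and with 32 added to each intensity it was not called at any stage.

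Of 12 heart markers, 6 to 10 were down-regulated in forelimb against whole embryo at each stage and 8 to 10 in hindlimb. Of all genes, 3.69% to 15.32% were called in forelimb and 12.54% to 15.71% in hindlimb, in either direction. Their summed intensity was 390 to 650 in E9.5 forelimb, 258 to 1547 in E10.5 limbs and 4991 to 17265 in whole embryo. In E9.5 forelimb the sums of replicates 1 to 3 were 650, 477 and 390, beside Tbx20 probe set values of 5.62, 5.65 and 3.55. At E13.5, with the Tbx20 probe set at 2.81 to 3.02, the sum in forelimb was 14638 to 15324; the list holds genes such as Actc1 and Tnnt2 that skeletal muscle also expresses. The higher whole embryo value of 9.0 at E12.5 came from the array whose scan blemish the authors corrected, and without it the averaged gene was still called lower, by 1.47 in forelimb and 1.29 in hindlimb.

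**Figure D2:**
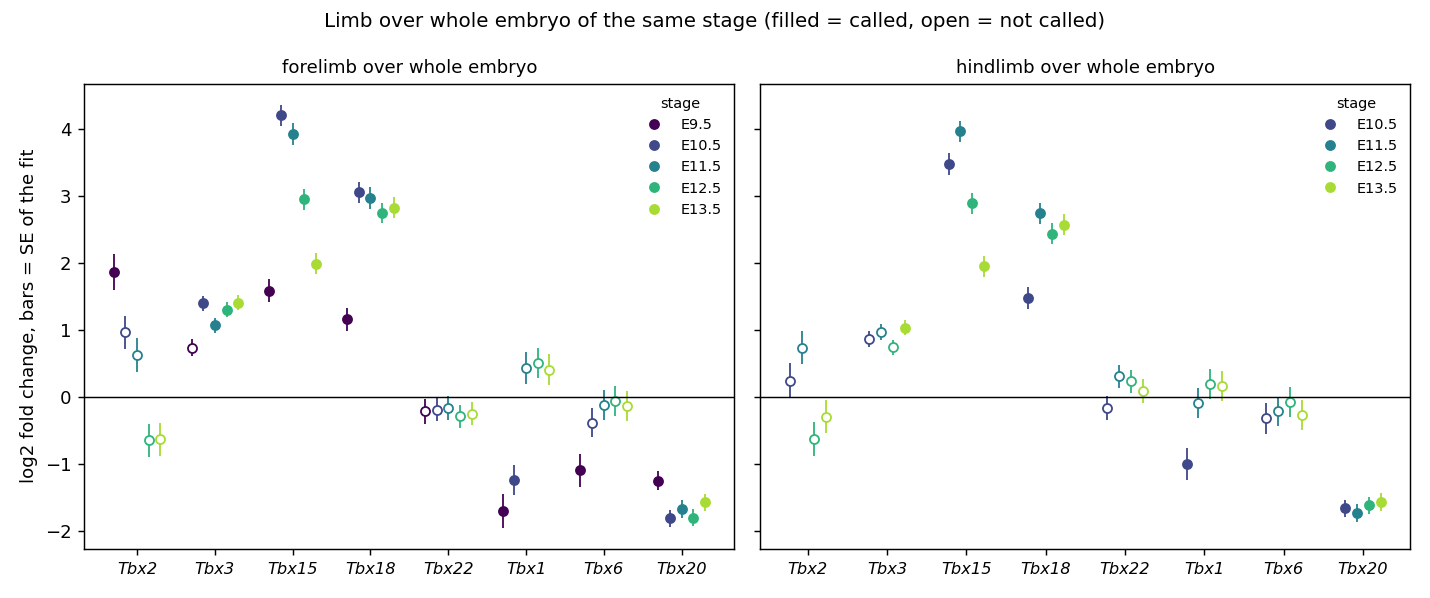
Log2 fold change of forelimb (left) and hindlimb (right) over whole embryo of the same stage for the 8 genes, colored by stage, with bars for the standard error of the limma fit, filled points for called genes and open points for genes not called. Tbx15 narrowed from 4.21 at E10.5 to 1.99 at E13.5 in forelimb while Tbx18 stayed between 2.75 and 3.06, and Tbx20 was below 0 at every stage.

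**Figure D3:**
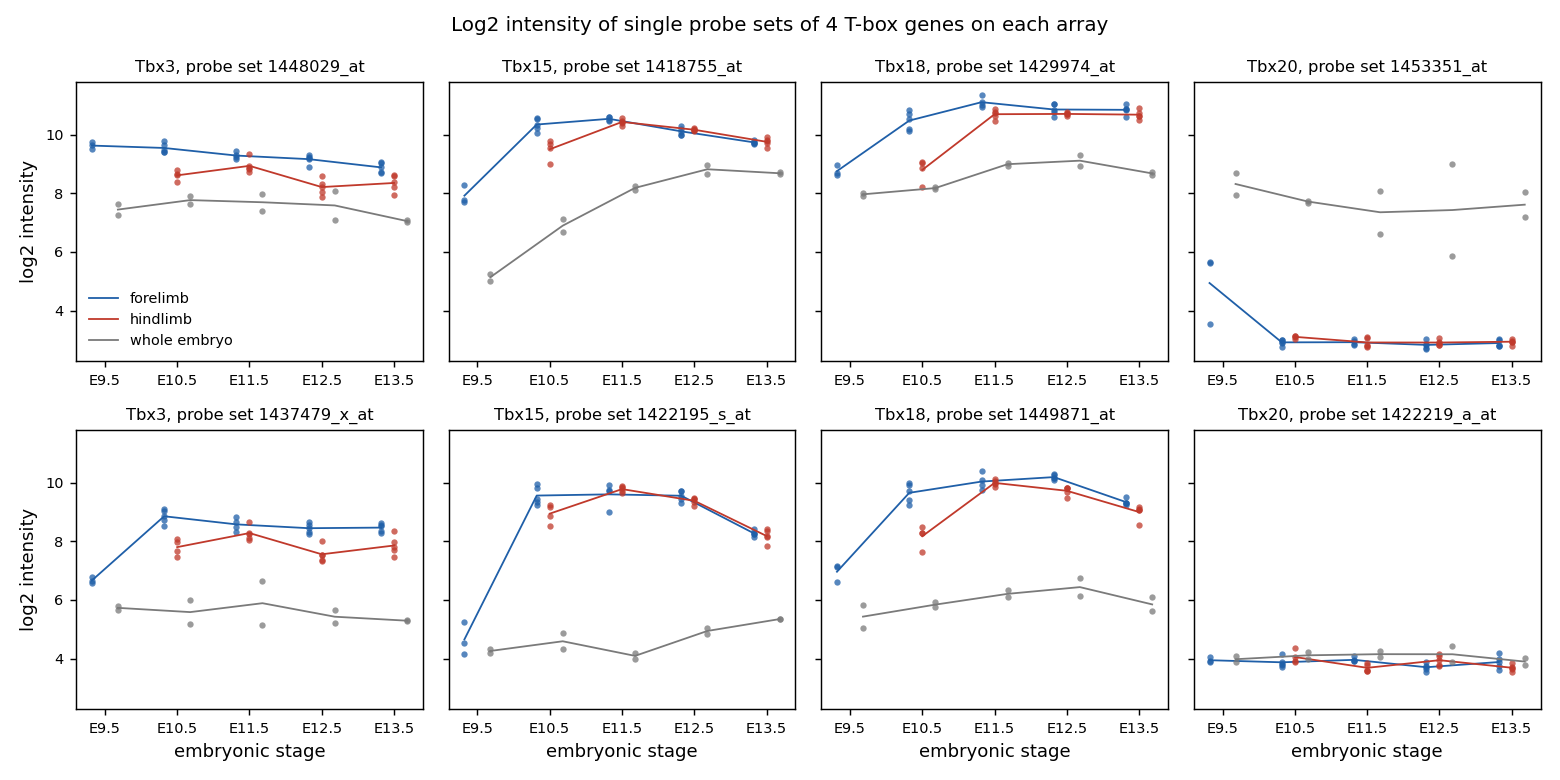
Log2 intensity (vertical axis, a common scale) of single probe sets on each of the 51 arrays against embryonic stage, for Tbx3, Tbx15, Tbx18 and Tbx20 from left to right, with points for arrays and lines joining group means. Probe set 1448029_at of Tbx3 was flat from E9.5 to E10.5 in forelimb where 1437479_x_at rose by 2.19. The array set changed in this step too. Of the Tbx20 probe sets shown only 1453351_at was higher in whole embryo.

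Forelimb was compared with hindlimb of the same stage to find genes that separate the limb types. Of the 8 genes, 1 was called at E10.5, where 0.566% of all genes were called, and this was Tbx18, higher in forelimb. At E11.5, E12.5 and E13.5, where 0.412%, 0.506% and 0.286% of all genes were called, limma called 0 of the 8, and 2, 3 and 3 of them had an unadjusted p under 0.05. Tbx2, Tbx3, Tbx15 and Tbx22 had an adjusted p under 0.05 at 1 or more stages, with differences of up to 0.73 that did not reach 2-fold.

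Tbx18 at E10.5 was at 8.57, 8.66, 7.94 and 8.76 in hindlimb, so that the lowest forelimb array, at 9.68, was above the highest hindlimb array. The log2 fold change was 1.58 (SE 0.125, 95% interval 1.33 to 1.83, adjusted p = 8.52e-13), or 2.99-fold, and single probe sets gave 1.68 and 1.48, both called. The later differences were 0.23, 0.31 and 0.25, stage by stage. The lowest hindlimb array, replicate 3, also stood apart in summed marker intensity. It was at 1547 for the heart markers against 300 to 468 on the other 3, and at 1875 against 930 to 1069 for the presomitic and somite markers. For 8 muscle precursor markers it was at 1056 against 622 to 877, and for 13 limb mesenchyme markers at 9221 against 10309 to 10539. Their part in the Tbx18 values was not tested. Without replicate 3 the Tbx18 difference was 1.40 (adjusted p = 8.77e-12). With only the E10.5 limbs in the fit the value was unchanged at 1.58 with an adjusted p of 0.00143.

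Tbx15 at E10.5 was 0.73 higher in forelimb (SE 0.126, adjusted p = 4.73e-05), with its lowest forelimb array at 9.65 and its highest hindlimb array at 9.5. From E11.5 on the difference was between -0.04 and 0.06. Tbx2 was likewise 0.73 higher at E10.5 (SE 0.199, adjusted p = 0.00981), again without overlap, the lowest forelimb array being at 7.68 and the highest hindlimb array at 7.46. Hindlimb replicate 3 was the lowest of its group for Tbx2, Tbx3, Tbx15 and Tbx18 and the highest for Tbx1 and Tbx22.

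The Tbx3 differences were 0.53 at E10.5 (SE 0.091, adjusted p = 3.28e-05), 0.10 at E11.5, 0.56 at E12.5 (SE 0.085, adjusted p = 8.12e-06) and 0.37 at E13.5 (adjusted p = 0.00342). None of these reached 2-fold, although probe set 1437479_x_at did at E10.5, with 1.05. Tbx22 had the opposite sign, at -0.47 at E11.5 (adjusted p = 0.0385) and -0.52 at E12.5 (SE 0.132, adjusted p = 0.0069). Tbx6 and Tbx20 differed by -0.18 to 0.13.

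**Figure D4:**
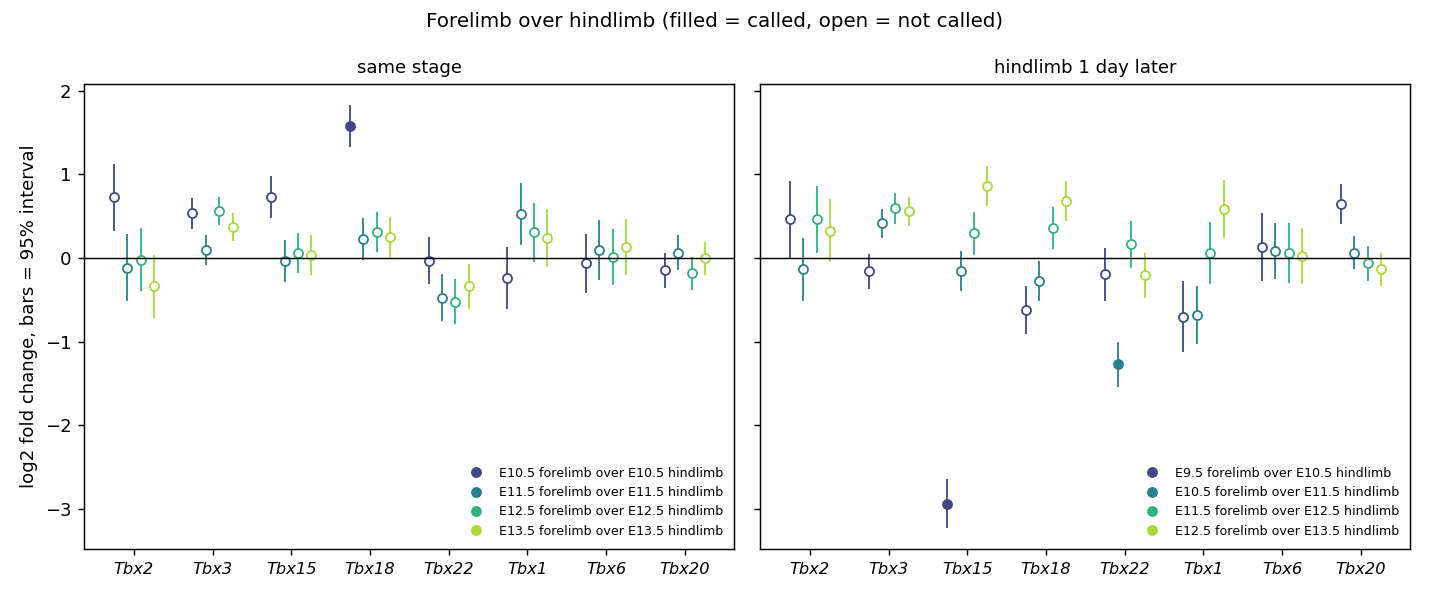
Log2 fold change of forelimb over hindlimb of the same stage (left) and over hindlimb 1 day later (right) for the 8 genes, colored by stage, with bars for the 95% interval, filled points for called genes and open points for genes not called. Tbx18 at E10.5 is the only called point on the left, at 1.58, and Tbx15 at -2.93 and Tbx22 at -1.27 are those on the right.

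Hindlimb buds form later than forelimb buds, and forelimb was therefore also set against hindlimb 1 day older. The delay given in the paper is shorter than 1 day, so these pairs are not matched in development. Limb and stage both differ in them. Of the 8 genes, 1 was called in E9.5 forelimb against E10.5 hindlimb (6.10% of all genes), Tbx15, lower by 2.93 in forelimb (SE 0.144, adjusted p = 7.87e-21). This comparison crosses the array sets. Another was called in E10.5 forelimb against E11.5 hindlimb (0.989% of all genes), Tbx22, lower by 1.27 (SE 0.132, adjusted p = 7.57e-10). At the later pairs of stages (0.280% and 1.46% of all genes) limma called 0 of the 8, with 4 at each pair having an unadjusted p under 0.05. Tbx18, which differed between limbs of the same stage, was -0.62 and -0.28 at the earlier pairs and 0.36 and 0.68 at the later ones.

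The Tbx22 values behind that call were 3.47, 3.58, 3.49, 3.78 and 3.67 in E10.5 forelimb and 4.52, 4.45, 5.20, 5.00 and 5.16 in E11.5 hindlimb, with no overlap. With 32 added to each intensity before log2 the difference was -0.48 and was not called. The Tbx3 average, at -0.16 in E9.5 forelimb against E10.5 hindlimb, was 1.01 with its brightest probe set alone.

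Next, each limb was compared with its own next stage. As the limb replicates of a stage were littermates, stage and litter cannot be told apart in any comparison of stages within a limb. By the paper's account whole embryos of a stage may be littermates too, so the same limit may apply between their stages. In forelimb Tbx15 and Tbx18 rose from E9.5 to E10.5 (7.54% of all genes called) and Tbx1 rose from E10.5 to E11.5 (2.07%). In hindlimb Tbx18 and Tbx22 rose from E10.5 to E11.5 (2.32%). From E11.5 to E12.5 (0.764% of all genes in forelimb, 0.824% in hindlimb) and from E12.5 to E13.5 (2.71% and 1.95%) limma called 0 of the 8, and 2, 5, 4 and 3 of them had an unadjusted p under 0.05. Without E9.5 forelimb replicate 3, the first forelimb step of Tbx20 was called as well, at -1.02.

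Tbx15 rose by 3.66 (SE 0.138, adjusted p = 5.72e-25), or 12.7-fold, from E9.5 to E10.5 forelimb, and Tbx18 by 2.21 (SE 0.136, adjusted p = 8.5e-18), in the step where the array set changed too. The highest E9.5 array, at 6.77 for Tbx15 and 8.06 for Tbx18, lay below the lowest E10.5 array, at 9.65 and 9.68. In hindlimb, within a set, Tbx18 rose from 8.57, 8.66, 7.94 and 8.76 at E10.5 to 10.21, 10.23, 10.43, 10.47 and 10.37 at E11.5. No array of the earlier stage came near the later ones, and the change was 1.86 (SE 0.125, adjusted p = 8.71e-16), or 1.68 without replicate 3. The Tbx15 step was 0.88 (SE 0.126, adjusted p = 3.12e-07), short of 2-fold.

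Tbx22 in hindlimb went from 3.30, 3.59, 3.90 and 3.70 at E10.5 to the E11.5 values given above, a change of 1.24 (SE 0.140, adjusted p = 1.41e-09). In forelimb it went to 4.39, 4.30, 4.32 and 4.56 at E11.5, a step of 0.80, short of 2-fold (SE 0.140, adjusted p = 2.08e-05). From E11.5 to E12.5 the steps were -0.69 in forelimb and -0.64 in hindlimb, and both limbs and whole embryo had their highest mean at E11.5. With 32 added to each intensity the hindlimb step was 0.47 and was not called.

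Tbx1 in forelimb went from 5.39, 5.57, 5.10, 6.26 and 5.74 at E10.5 to 6.56, 6.94, 6.93 and 6.83 at E11.5. The groups did not overlap, although replicate 4 at E10.5 came close, and the change was 1.20 (SE 0.183, adjusted p = 1.63e-06). In hindlimb the steps were 0.44, 0.46 and -0.28, none called. The summed intensity of 8 muscle precursor markers was 1006 to 1278 in E10.5 forelimb and 1623 to 1910 at E11.5, and replicate 4 at E10.5 had the highest sum of its group for them and, at 728 against 258 to 299, for the heart markers; their part in the Tbx1 values was not tested.

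From E10.5 to E13.5, over which a slow change adds up, 2 of the 8 genes were called in forelimb (10.56% of all genes) and 1 in hindlimb (11.15%). Tbx1 rose by 1.1 in forelimb (SE 0.173, adjusted p = 4.39e-07), or 0.97 and not called without E10.5 replicate 3, and was 0.62 in hindlimb. Tbx2 fell by 1.13 in forelimb (SE 0.188, adjusted p = 1.34e-06), from 8.20, 8.01, 7.68, 8.07 and 7.90 to 7.01, 6.81, 6.78, 6.61 and 7.02, and was -0.06 in hindlimb. Hindlimb Tbx2 was at 7.46, 7.30, 6.77 and 7.45 at E10.5, at 8.01 to 8.29 at E11.5 and at 7.11 to 7.23 at E13.5, a course that the comparison of first and last stage does not show. Tbx15, at -0.94 in forelimb, became called at -1.02 without E10.5 replicate 4. Tbx18 rose by 1.35 in hindlimb (SE 0.125, adjusted p = 8.64e-13) and was 0.02 in forelimb. A single probe set of Tbx3, 1439567_at, fell by 1.53 in forelimb and 1.84 in hindlimb, both called, where the average of the gene was -0.54 and -0.37.

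In whole embryo 3 of the 8 genes were called between E9.5 and E13.5 (13.69% of all genes): Tbx15 as given above, Tbx2, which rose by 1.64 (SE 0.297, adjusted p = 9.63e-06), and Tbx6, which fell by 1.08 (SE 0.263, adjusted p = 0.000642). Tbx2 went from 6.77 and 4.91 to 7.43 and 7.53 and was highest at E12.5, at 8.09 and 8.23. Without E9.5 replicate 2 the Tbx2 change was 0.71 and without replicate 1 the Tbx6 change was -0.14, neither called. The Tbx6 call was also lost without either E13.5 embryo, at -1.1 and -1.05, while Tbx1 became called at -1.41 without replicate 2.

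Whether the limbs changed differently from stage to stage was tested as the forelimb change minus the hindlimb change, called at an adjusted p under 0.05. From E10.5 to E11.5, 3 of the 8 genes were called (4.42% of all genes), all with the higher step in hindlimb. From E11.5 to E12.5 (0.203% of all genes) and from E12.5 to E13.5 (2.73%) limma called 0 of the 8, and 1 and 0 of them had an unadjusted p under 0.05. Tbx18 gave -1.35 (SE 0.177, adjusted p = 2.17e-06), its forelimb change being 0.50 and its hindlimb change 1.86. Tbx15 gave -0.77 (SE 0.179, adjusted p = 0.00643) and Tbx3 -0.44 (SE 0.128, adjusted p = 0.0379). Tbx2, at -0.84 (SE 0.281, adjusted p = 0.08), was not called, but it was in 4 other settings: with the groups of the comparison alone in the fit (adjusted p = 0.0088), with the 38 later limb arrays alone (0.0016), with array weights (0.0028) and with 32 added to each intensity (0.0389). Of 12 other settings, the Tbx18 call was lost in 0, the Tbx15 call in 1 and the Tbx3 call in 5.

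Without hindlimb replicate 3 at E10.5 the Tbx18 value was -1.17 and the Tbx15 value -0.61 (adjusted p = 0.0373), both called, and the Tbx3 value -0.38 was not (adjusted p = 0.129). The Tbx3 call was lost in 7 of the 18 fits that left out an array, those without E10.5 forelimb replicate 2 or 4, E10.5 hindlimb replicate 2 or 3, E11.5 forelimb replicate 3 and E11.5 hindlimb replicate 1 or 4, with values of -0.44 to -0.34. Tbx1, at 0.76 (adjusted p = 0.0875), was called at 0.92 without E10.5 forelimb replicate 4 (adjusted p = 0.0206), and the Tbx3 difference from E11.5 to E12.5, at 0.46, was called at 0.54 without E12.5 hindlimb replicate 1.

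The 9 limb groups were also ordered by their means. For Tbx15 the mean was 10.10 in E11.5 hindlimb and 6.29 in E9.5 forelimb, and neighbours in the order were separated without overlap at 2 of 8 places, between E12.5 hindlimb at 9.77 and E10.5 hindlimb at 9.22 and between E13.5 hindlimb at 8.97 and E9.5 forelimb. For Tbx18 they were separated at 1 of 8 places, between E13.5 hindlimb at 9.84 and E10.5 hindlimb at 8.48. For Tbx3 neighbours overlapped at 5 of the 8 places, fewer than for Tbx15 or Tbx18. For the remaining genes they overlapped at 7 or 8. Such places were not counted over all genes.

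Other genes of the pathway were taken as fixed lists. Of the 7 other T-box genes measured, Tbx5 was up-regulated in forelimb and Tbx4 in hindlimb against whole embryo at every stage, and the down-regulated ones from E10.5 on were Eomes and Tbr1, genes of the developing cortex. Of 26 partners and targets of T-box factors, 12 were up-regulated and 2 down-regulated in E10.5 forelimb against whole embryo. The median was 0.77, against 0.03 over all genes, of which 13.93% were called. The called genes of largest size were the ridge signal Fgf8 at 4.18, Gsc at 2.88 and the Notch ligand Dll1 at -2.70. Whether T-box factors act on these genes here was not tested. In hindlimb at E10.5, 10 were higher and 2 lower (median 0.60 against 0.04, with 13.18% of all genes called). Between the limbs at E10.5 (0.566% of all genes), 1 was called, Gsc, which was 1.16 higher in forelimb (adjusted p = 0.000582). From E10.5 to E13.5, 3 rose and 9 fell in forelimb (median -0.10 against -0.03 over all genes, of which 10.56% were called) and 3 rose and 5 fell in hindlimb (median -0.06 against -0.08, with 11.15% called), with Shh, the posterior organizing signal, at -2.84 and -2.70.

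Genes with the most similar course were ranked by Pearson correlation of the 14 group means among genes whose means spanned at least 1 log2 unit, as a description over points that share arrays and array sets. For Tbx15 these were Lrig2 (r = 0.997), Mxi1 (0.987) and Galnt5 (0.987), and for Tbx18 Pdgfra (0.988), Arid5b (0.981) and Lrp12 (0.980). For Tbx3 the closest was Hoxd10 (0.975), for Tbx2 Ddah2 (0.926), for Tbx1 Lrrn1 (0.868), for Tbx6 Nepn (0.972), for Tbx20 Nat8l (0.995) and for Tbx22 Evx1os (0.756). Over the 8 limb groups from E10.5 on, which are of 1 array set, Pdgfra had 0.946 with Tbx18, Lrig2 0.936 with Tbx15, Nat8l 0.877 with Tbx20 and Nepn -0.057 with Tbx6. Of 8739 genes, Pdgfra, Lrig2 and Nat8l ranked 23, 62 and 26 over these groups. The first places were held by Ptms (0.989), Bves (0.980) and Chrna3 (0.961). The Tbx20 means there were low, at 3.24 to 3.51. Tbx15 and Tbx18 had 0.944 with each other over the 14 groups and 0.563 over the 8, and Tbx2 and Tbx15 0.524 and 0.933.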

How the data were processed

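RNA of single wildtype FVB embryos was hybridised to Affymetrix whole-genome mouse arrays. The authors derived RMA expression values and deposited them as intensities on a linear scale, and log2 of each deposited value was taken here. One blemished whole embryo array (E12.5, replicate 2) had been corrected by the authors from the median of its replicates. Probe sets with exactly 1 gene symbol in the platform annotation (34958 of 45101; 932 had several and 9211 were not listed) were averaged per gene. All 18194 genes and 14 groups were fitted at once with limma 3.58.1 in R 4.3.3 (37 residual degrees of freedom), with Benjamini-Hochberg adjustment within each comparison, and the same was done on single probe sets. No filter was set on low values. The scripts were tested on simulated data. The 8 genes, the lists and the tests were chosen with earlier results of these data known. The number of arrays limits the precision, with 2 whole embryos per stage. The alternatives were groups fitted alone, the brightest probe set, quantile normalization, median centring, 32 added before log2, a filter on low values, moderation with a trend, array weights, the replicate number as a block, the 2 arrays of doubtful label left out or moved, a single array set, and each array left out. The named genes are the 8 members, up to 3 called genes per list, and the genes of most similar course. Promoter and gene positions come from RefSeq (GRCm38.p6), whose promoter table held 5 of the 8; Tbx2, Tbx3 and Tbx15 are the others. Some genes of the lists were not analysed here, and the counts given for a list are over its analysed genes.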

Additional observations from a re-analysis of the deposited data

Results flagged for a closer look

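Of 64 sets of 4 or 5 replicates of a member, 6 had an array far from the others by Dixon's ratio. For independent sets chance gives about 1 in 20. The genes of a group share its arrays, so 1 array can be flagged several times and the rates are not directly comparable. In E12.5 hindlimb, replicate 1 was such an array for Tbx1 (6.55, others 6.76 to 6.84), Tbx2 (7.95, others 7.38 to 7.53) and Tbx22 (4.80, others 4.02 to 4.19). In E11.5 forelimb, replicate 3 was such an array for Tbx3 (6.36, others 6.72 to 6.76) and Tbx15 (9.73, others 10.16 to 10.21). In E13.5 forelimb, replicate 2 was at 3.68 for Tbx22, with the others at 3.53 to 3.55. The change from E10.5 to E11.5 differed between forelimb and hindlimb, by the test of the difference itself, for Tbx18 (-1.35), Tbx15 (-0.77) and Tbx3 (-0.44). Of 12 other settings the Tbx15 call was lost in 1 and the Tbx3 call in 5, and the Tbx3 call was lost in 7 of 18 fits without an array.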

How the results depend on the processing

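With 32 added to each intensity before log2, 22 of the 72 limb differences from whole embryo were called in place of 37, 1 in place of 2 between forelimb and older hindlimb, 3 in place of 5 between successive stages and 1 in place of 3 between E10.5 and E13.5; Tbx20 then lost its call in all 9 limb comparisons, at -0.93 to -0.83. With only the arrays of E9.5 forelimb and whole embryo in the fit, 0 of the 6 calls at E9.5 were left (adjusted p of 0.00151 to 0.12), and 1 of the 3 whole embryo calls. Those 6 were also lost with each comparison's own groups alone and with array weights, where 29 and 31 calls against whole embryo were made in place of 37. With each comparison's own groups alone in the fit, the calls were 0 in place of 1 between limbs of the same stage (Tbx18 at 1.58) and 0 in place of 3 in whole embryo, where array weights left 1. Differences of change between the limbs numbered 6 in place of 3 with array weights and 5 with a single array set, and the brightest probe set alone gave 5 in place of 2 against older hindlimb, with Tbx3 turned from -0.16 to 1.01 (adjusted p = 4.67e-06). Counts of 2 in place of 3 were given by quantile normalization between E10.5 and E13.5, in whole embryo and for differences of change, by 32 added in whole embryo, and by the brightest probe set and the 2 arrays of doubtful label left out or moved for differences of change. Every other count was within 1.5 times.

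Leaving out each array in turn gave 35 to 38 calls against whole embryo, 1 between limbs of the same stage, 2 against older hindlimb, 5 to 6 between stages, 2 to 4 between E10.5 and E13.5, 2 to 3 in whole embryo and 2 to 4 differences of change. Of the 54 calls, 24 were made under every setting that could be fitted for them. The other 30 were lost under at least 1, of which 12 were lost when an array was left out. The fit of a single array set could not hold comparisons across the sets. Limb against whole embryo from E10.5 on and E9.5 forelimb against later limb were thus not put to it, including such calls among the 24. The paper takes each limb sample from 1 embryo, out of 5 in total, so forelimb and hindlimb arrays of a stage may share embryos. The main fit treated them as independent. Replicate numbers were not taken to pair the samples, as no label ties a number to an embryo. Of 18 pairs of forelimb and hindlimb arrays with the same number, 9 correlated above 0.1 (-0.11 to 0.347, median 0.10, against -0.018 for other pairs). All 10 such pairs at E12.5 and E13.5 were above 0, and 5 of 18 forelimb arrays correlated best with their own number. With the replicate number as a block the counts were 39, 1, 2, 5, 3, 3 and 3. Between limbs of the same stage and for differences of change, the block was the number within a stage. In the other comparisons it was the number across all groups, which joins unrelated embryos. Within stages, the Tbx15 difference of change was lost (-0.71, adjusted p = 0.0552). The Tbx3 difference of change from E11.5 to E12.5 was gained (0.47, adjusted p = 0.0181). With the number across groups, Tbx2 in E10.5 forelimb (1.04) and Tbx3 in E11.5 hindlimb (1.02) were gained against whole embryo.

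The filter on low values left Tbx22 untested. For single probe sets, 104 calls were made after quantile normalization, 80 with 32 added and 110 without the 2 arrays of doubtful label, in place of 110. At low signal, as for Tbx6, Tbx20 in limb and Tbx22, background limits how far a fold change can be read.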
